A study of Homo sapiens with 41 samples.

Results

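The genes described here are 10 components of the insulin-like growth factor (IGF) axis: the IGF-binding protein genes IGFBP1 to IGFBP7 (7 genes), the ligand gene IGF2, the receptor gene IGF1R and the protease gene PAPPA2. They were chosen by name, with their levels across these samples already known, and found among the 58735 Ensembl genes of the count files through their symbols. All 10 were present in the files. Because their levels chose them, every value of these 10 genes is a description and carries no test. Tests are given for other genes of the same pathway. That list was also chosen with earlier results of these data known, so its p-values carry this limit.

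IGF1 and IGF2 are secreted growth factors that act through the tyrosine kinase receptor IGF1R, whose adaptors IRS1 and IRS2 lead to PI3K and AKT. The IGF-binding proteins hold the ligands outside the cell and set how much reaches the receptor, and some act on cells without a ligand. Proteases such as PAPPA and PAPPA2 cut binding proteins and so free the ligand, and the stanniocalcins STC1 and STC2 inhibit these proteases. In the liver, hepatocytes are the main source of circulating IGF1 and of IGFBP1, while activated stellate cells and other fibroblast-like cells secrete several of the other binding proteins.

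RNA was sequenced from LX-2, an immortalised line of human hepatic stellate cells, and from HMLE, an immortalised line of human mammary epithelial cells. Each line was used with a control hairpin, shCtrl, and with 1 that targets ATF4, called shATF4. ATF4 is the transcription factor of the integrated stress response that the study examined in liver fibrosis. With each hairpin, LX-2 was given DMSO, TGFβ, thapsigargin (Tg, which blocks the calcium pump of the endoplasmic reticulum) or the condition labelled AA_Dep. HMLE was given DMSO, thapsigargin or AA_Dep, or carried Twist_OE, named for Twist, a transcription factor of epithelial-mesenchymal transition. This made 16 groups of 2 samples in 2 lines. The labels give no dose, no duration and no words for AA_Dep, name 1 hairpin against ATF4, and do not say that the 2 samples of a group were separate cultures, so that p-values measure the spread between these samples, which may be technical. For Twist_OE the labels name no empty-vector group and no vehicle. Set against DMSO, Twist itself, the vector and the vehicle therefore cannot be told apart, and a response to Twist_OE means only this difference. The labels also name no vehicle or medium for TGFβ and AA_Dep, which cannot be told apart from these treatments in changes against DMSO. In these bulk samples, fewer cells with a transcript and less of it per cell cannot be told apart.

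A library held 14551191 to 18776430 counts in LX-2 and 15956909 to 23243132 counts in HMLE. The pair of HMLE shATF4 AA_Dep files held the same values and was counted as 1 library, which leaves 31 libraries and no spread for that group, so that each SE and p of a comparison with it assumes that it varies like the other HMLE groups. In LX-2, shCtrl Tg replicate 2 stood apart: its log2 CPM (counts per 1000000 gene counts of the library) correlated with its replicate at r = 0.854, while all other pairs of LX-2 lay between 0.985 and 0.991. It held counts for 15840 genes against 22912 to 24255 elsewhere in LX-2. The coefficient of biological variation was 29.5% over all 16 LX-2 libraries, 9.21% over the 15 without it and 5.24% in HMLE. Most LX-2 results are therefore given both with and without this library, called the discordant library below. Leaving it out leaves 1 shCtrl Tg library, assumed to vary like the other groups. Where the discordant library was not compared, the log2 changes of 7 of the expressed genes over 16 and over 15 libraries differed by at most 0.018 in 5 comparisons, and the SE over 16 libraries was 1.4 to 6.6 times as large. Within each line and condition, all shATF4 libraries lay below all shCtrl libraries for ATF4 itself, at 120 to 134 CPM against 226 to 245 CPM in LX-2 DMSO and at 120 to 125 CPM against 433 to 455 CPM in HMLE DMSO. In LX-2 it was at 210 to 233 against 670 to 785 CPM under Tg, and 235 to 240 against 618 to 785 CPM in AA_Dep. Stressed LX-2 with shATF4 thus had ATF4 RNA near the shCtrl DMSO level. In HMLE, shATF4 libraries were at 101 to 103 CPM under Tg and 134 CPM in AA_Dep. In shCtrl DMSO, 5 of 10 stellate cell markers reached 1 CPM in LX-2 (COL1A1, COL1A2, PDGFRB, VIM and TAGLN). DES, LRAT, LUM, DCN and HGF did not. In HMLE, 10 of 10 basal epithelial markers did so. Neither list was exclusive to its line. In HMLE 4 of 10 stellate markers reached 1 CPM (COL1A1, VIM, TAGLN and LRAT), so LRAT was higher there than in LX-2. In LX-2 2 of 10 basal markers did (ITGB4 and LAMA3). Summed over the list, stellate markers were at 7370 to 7670 CPM in LX-2 and 38.3 to 41 CPM in HMLE. Basal markers were at 22.8 to 23.7 CPM in LX-2 and 9000 to 9040 CPM in HMLE. Of 8 hepatocyte markers, 1 reached 1 CPM in the shCtrl DMSO libraries of LX-2, SERPINA1 at a mean of 5.03 CPM, while APOA1 was at 0.027 CPM and ALB, TTR, CYP3A4, TF, HP and APOB were at 0 counts. SERPINA1 was higher in HMLE shCtrl DMSO, at a mean of 29.8 CPM.

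The ligand genes were close to absent in both lines. IGF2, the fetal growth factor, had 25 counts in all over 6 of the 16 LX-2 libraries and 15 counts over 4 of the 15 HMLE libraries. In LX-2 it was at 0.534 and 0.216 CPM in shCtrl DMSO, at 0.362 and 0.109 CPM in shATF4 DMSO, at no more than 0.108 CPM under TGFβ, and at 0 counts in every Tg and AA_Dep library. In HMLE every IGF2 count fell in the Twist_OE libraries, at 0.295 and 0.137 CPM with shCtrl and 0.151 and 0.129 CPM with shATF4. These levels rest on 1 to 14 counts a group, and whether counting used strand is not given in the sources used here, so reads of IGF2 and its antisense partner IGF2-AS cannot be told apart. IGF2-AS, at 0.214 and 0.27 CPM in LX-2 shCtrl DMSO and 0.492 and 0.366 CPM in HMLE shCtrl Twist_OE, was as low. IGF1 had 5 counts in LX-2 and 1 in HMLE, and the insulin gene INS and the read-through gene INS-IGF2 had 0 counts in every library of both lines. A count of 0 over a group of 2 libraries allows up to 3 counts, which is 0.0806 CPM for LX-2 shCtrl DMSO and 0.0696 CPM for HMLE shCtrl DMSO.

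IGF1R, the receptor for both ligands, was expressed in every library. In LX-2 shCtrl it was at 91.6 and 79.4 CPM in DMSO, 105 and 99.3 CPM under TGFβ, 29.7 and 15.7 CPM (the discordant library) under Tg, and 44.8 and 61.2 CPM in AA_Dep. With shATF4 the LX-2 levels were 50.9 and 51.1 CPM in DMSO, 62.2 and 59.5 CPM under TGFβ, 38.6 and 36.1 CPM under Tg, and 38.6 and 41.8 CPM in AA_Dep. IGF1R was thus lower with shATF4 than with shCtrl, without overlap, in DMSO, TGFβ and AA_Dep, and higher in Tg. Over 15 libraries the fitted log2 difference between hairpins was -0.76 ± 0.12 (SE) in DMSO, -0.76 ± 0.12 under TGFβ, -0.48 ± 0.12 in AA_Dep and 0.35 ± 0.16 in Tg, the last also 0.35 ± 0.17 over 16 libraries.

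HMLE showed another order of IGF1R levels. With shCtrl it was at 50 and 45.6 CPM in DMSO, 112 and 109 CPM in Twist_OE, 48.2 and 41.9 CPM under Tg, and 124 and 132 CPM in AA_Dep. With shATF4 it was at 47.4 and 43.4 CPM in DMSO, 66.8 and 58 CPM in Twist_OE, 68.1 and 61.7 CPM under Tg, and 165 CPM in the single AA_Dep library. AA_Dep gave the highest levels with either hairpin, DMSO and Tg overlapped in shCtrl, and Twist_OE was 2.31-fold above DMSO in shCtrl, while with shATF4 the response to Twist_OE was smaller by 0.79 ± 0.12 (SE) on the log2 scale. AA_Dep thus went with lower IGF1R in LX-2 (log2 change -0.71 ± 0.12 over 15 libraries) and with higher IGF1R in HMLE (1.31 ± 0.09).

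**Figure D1:**
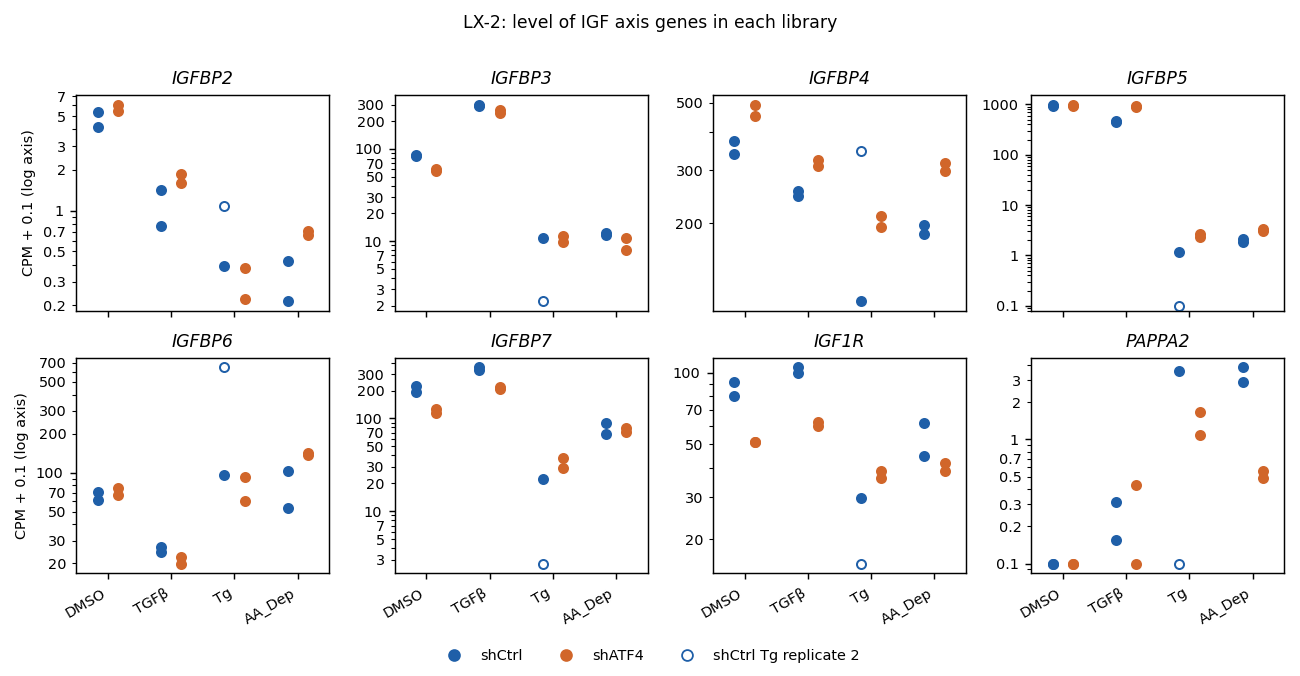
Level of the 8 expressed genes in each LX-2 library, as CPM plus 0.1 on a log axis, by condition and hairpin. Each point is 1 library, and the open circle is the discordant shCtrl Tg replicate 2. IGFBP5 is at 944 and 956 CPM in shCtrl DMSO and between 0 and 3.18 CPM in the Tg and AA_Dep libraries, and PAPPA2 is at 0 in all 4 DMSO libraries.

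IGFBP1, a hepatocyte product that insulin represses, had 8 counts over 5 LX-2 libraries and 4 counts over 3 HMLE libraries. Its highest level was 0.162 CPM, in LX-2 shCtrl AA_Dep, where the replicate was at 0.116 CPM. Those 5 counts stand against 0 in shCtrl DMSO, which allows up to 3, so they are too few to give a fold change.

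IGFBP5, a binding protein that also attaches to extracellular matrix, ran from 0 to 978 CPM over the LX-2 libraries. In LX-2 shCtrl it was at 944 and 956 CPM in DMSO, 478 and 453 CPM under TGFβ, 1.05 and 0 CPM (the discordant library) under Tg, and 1.72 and 2.02 CPM in AA_Dep. The shATF4 libraries were at 978 and 942 CPM in DMSO, 929 and 878 CPM under TGFβ, 2.56 and 2.27 CPM under Tg, and 3.18 and 2.93 CPM in AA_Dep. Both stress conditions left IGFBP5 near 0 with either hairpin, and under TGFβ its mean level was 0.49 of that in DMSO with shCtrl, while the shATF4 libraries under TGFβ lay just below those in DMSO.

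The fitted log2 change of IGFBP5 in LX-2 shCtrl, over 15 libraries, was -9.92 ± 0.16 (SE) under Tg (-10.63 ± 0.67 with the discordant library), -9.00 ± 0.11 in AA_Dep and -0.90 ± 0.07 under TGFβ. With shATF4 the change under TGFβ was 0.04 ± 0.07, so the responses differed by 0.94 ± 0.10 on the log2 scale. Over all 16 libraries that difference was 0.95 ± 0.60. The hairpins overlapped in DMSO (log2 difference 0.00 ± 0.07) and did not overlap in Tg (1.23 ± 0.23, and 1.92 ± 0.57 with the discordant library) or AA_Dep (0.63 ± 0.15), where shATF4 was higher at levels of a few CPM.

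In HMLE, IGFBP5 was at 0.177 and 0.0489 CPM in shCtrl DMSO, which is 5 counts. Thapsigargin gave the highest HMLE levels, 1.35 and 1.87 CPM with shCtrl (71 counts), against 0.146 and 0.0438 CPM with shATF4 (4 counts). All other HMLE groups lay at or below 0.354 CPM in each library. The direction of the Tg change was thus opposite to that in LX-2, at levels far below those of LX-2 in DMSO. Between the lines in shCtrl DMSO, the fitted log2 difference, LX-2 minus HMLE, was 12.74 ± 0.23 over the libraries without the discordant one.

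IGFBP3, the main carrier of IGFs in serum, was high under TGFβ and low under both stresses in LX-2, and was high under the same stresses in HMLE. In LX-2 shCtrl it was at 85.4 and 84.4 CPM in DMSO, 301 and 293 CPM under TGFβ, 10.7 and 2.16 CPM (the discordant library) under Tg, and 11.7 and 12.3 CPM in AA_Dep. Those with shATF4 were at 60.6 and 56.8 CPM in DMSO, 264 and 246 CPM under TGFβ, 9.65 and 11.3 CPM under Tg, and 10.6 and 7.9 CPM in AA_Dep. The order of conditions was the same with either hairpin: TGFβ above DMSO, and DMSO above both stresses. Against shCtrl, IGFBP3 with shATF4 was lower without overlap in DMSO (log2 -0.55 ± 0.10, SE, 15 libraries), TGFβ (-0.23 ± 0.10) and AA_Dep (-0.46 ± 0.13), and overlapped in Tg, at 0.49 ± 0.33 with the discordant library and -0.01 ± 0.16 without it. The Tg change with shCtrl was -3.09 ± 0.16 without that library and -3.60 ± 0.35 with it.

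In HMLE shCtrl, IGFBP3 was at 19.8 and 18.4 CPM in DMSO, 44.3 and 42.7 CPM in Twist_OE, 115 and 129 CPM under Tg, and 97.1 and 103 CPM in AA_Dep. With shATF4 it was at 18.9 and 21.8 CPM in DMSO, 136 and 137 CPM in Twist_OE, 125 and 138 CPM under Tg, and 135 CPM in the single AA_Dep library. Every condition lay above DMSO with either hairpin. The log2 change under Tg was 2.72 ± 0.08 (SE) with shCtrl and 2.71 ± 0.08 with shATF4, a difference of -0.01 ± 0.11. In Twist_OE the shATF4 libraries were 3.14-fold above the shCtrl libraries, and the response to Twist_OE was larger by 1.52 ± 0.12 on the log2 scale.

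**Figure D2:**
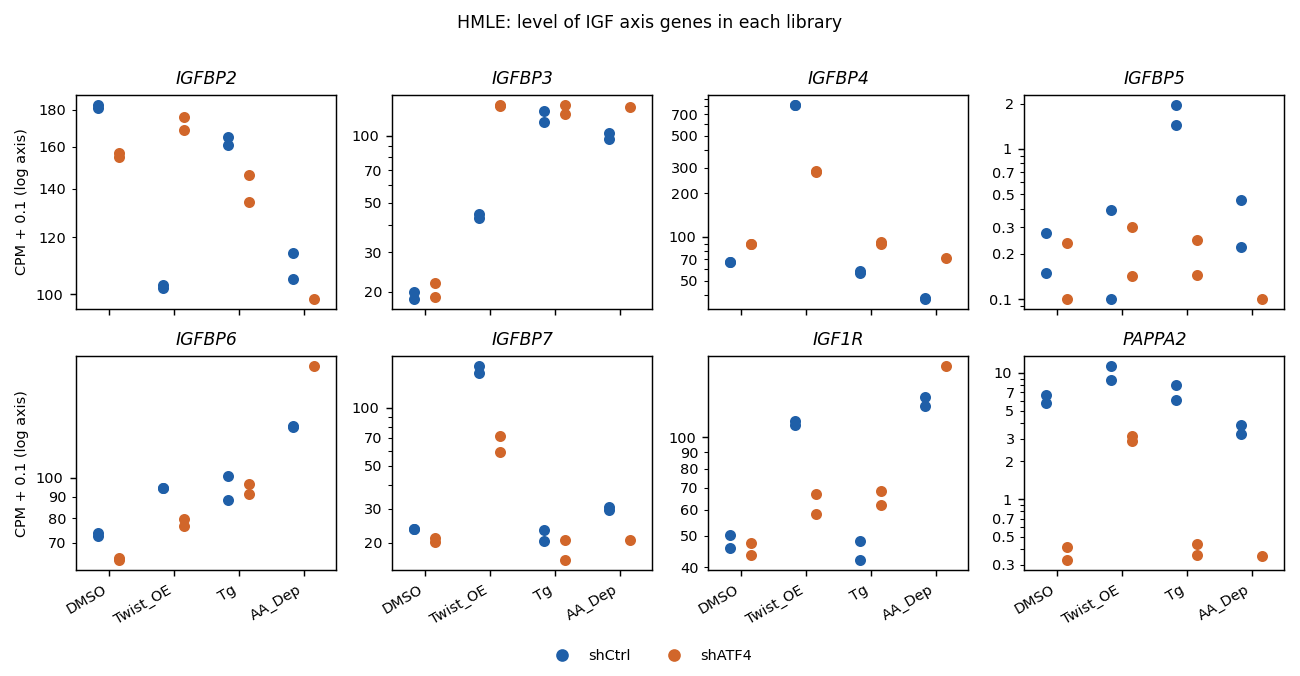
Level of the 8 expressed genes in each HMLE library, as CPM plus 0.1 on a log axis, by condition and hairpin. Each point is 1 library, and shATF4 AA_Dep has 1. IGFBP4 is highest in Twist_OE, at 818 and 815 CPM with shCtrl and 281 and 286 CPM with shATF4, and PAPPA2 with shATF4 lies below shCtrl in all 4 conditions.

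IGFBP4, which inhibits IGF action and is the main substrate of PAPPA, had the largest fitted change with Twist_OE in HMLE shCtrl of the 8 expressed genes. In HMLE shCtrl it was at 67 and 66.6 CPM in DMSO, 818 and 815 CPM in Twist_OE, 57.8 and 56.3 CPM under Tg, and 38 and 37.1 CPM in AA_Dep. The shATF4 libraries were at 90 and 89.7 CPM in DMSO, 281 and 286 CPM in Twist_OE, 92.8 and 88.8 CPM under Tg, and 71.1 CPM in AA_Dep. With shATF4, IGFBP4 was higher than with shCtrl in DMSO, Tg and AA_Dep, and lower in Twist_OE. The response to Twist_OE was 12.2-fold with shCtrl, a log2 change of 3.62 ± 0.05 (SE), and 1.63 ± 0.05 on the log2 scale with shATF4, a difference of -1.99 ± 0.07.

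In LX-2 shCtrl, IGFBP4 was at 338 and 374 CPM in DMSO, 246 and 256 CPM under TGFβ, 111 and 347 CPM (the discordant library) under Tg, and 198 and 184 CPM in AA_Dep. Those with shATF4 were at 493 and 452 CPM in DMSO, 309 and 324 CPM under TGFβ, 211 and 195 CPM under Tg, and 298 and 316 CPM in AA_Dep. The shATF4 libraries were the higher ones in every condition once the discordant library was left out, by 0.40 ± 0.08, 0.32 ± 0.08, 0.89 ± 0.11 and 0.61 ± 0.08 (SE) on the log2 scale in that order of conditions. With all 16 libraries the Tg difference had the other sign, -0.90 ± 0.54, and the Tg change in shCtrl moved from -1.78 ± 0.11 to 0.00 ± 0.54, so that the Tg level of IGFBP4 with shCtrl rests on which of 2 libraries is used.

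IGFBP7, a secreted protein of low IGF affinity found around vessels and in matrix, was highest under TGFβ in LX-2 and in Twist_OE in HMLE. In LX-2 shCtrl it was at 194 and 223 CPM in DMSO, 336 and 354 CPM under TGFβ, 21.9 and 2.62 CPM (the discordant library) under Tg, and 88.8 and 68.3 CPM in AA_Dep. With shATF4 it was at 127 and 115 CPM in DMSO, 208 and 218 CPM under TGFβ, 37.7 and 29 CPM under Tg, and 78.3 and 71.1 CPM in AA_Dep. It was lower with shATF4 than with shCtrl without overlap in DMSO (log2 -0.79 ± 0.13, SE, 15 libraries) and TGFβ (-0.71 ± 0.13), higher in Tg (0.63 ± 0.18), and overlapping in AA_Dep. The response to TGFβ was similar in size with either hairpin, 0.86 ± 0.13 with shCtrl and 0.94 ± 0.13 with shATF4, a difference of 0.08 ± 0.18. Under Tg the shCtrl change was -3.35 ± 0.19 without the discordant library and -4.04 ± 0.51 with it, and the hairpin difference 0.63 ± 0.18 and 1.31 ± 0.47.

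In HMLE, IGFBP7 was at 23.4 and 23.6 CPM in shCtrl DMSO and at 151 and 165 CPM in shCtrl Twist_OE. With shATF4 the Twist_OE libraries were at 59.1 and 71.7 CPM, against 20.1 and 21.1 CPM in DMSO. Every Twist_OE library was above every other HMLE library, the others lying between 16.1 and 30.7 CPM. The response to Twist_OE was 2.76 ± 0.09 (SE) on the log2 scale with shCtrl and 1.64 ± 0.09 with shATF4, a difference of -1.12 ± 0.13.

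IGFBP2 had its low levels in LX-2 and its high levels in HMLE. In LX-2 shCtrl it was at 4.06 and 5.24 CPM in DMSO, 0.673 and 1.33 CPM under TGFβ, 0.29 and 0.984 CPM (the discordant library) under Tg, and 0.323 and 0.116 CPM in AA_Dep. The shATF4 libraries were at 5.37 and 5.98 CPM in DMSO, 1.51 and 1.76 CPM under TGFβ, 0.122 and 0.275 CPM under Tg, and 0.567 and 0.608 CPM in AA_Dep. DMSO libraries were the highest with either hairpin. In shCtrl the log2 change over 15 libraries was -2.07 ± 0.33 (SE) under TGFβ, -4.07 ± 0.55 under Tg and -4.36 ± 0.43 in AA_Dep. With the discordant library the Tg change was -2.40 ± 0.66.

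In HMLE shCtrl, IGFBP2 was at 181 and 183 CPM in DMSO, 102 and 103 CPM in Twist_OE, 161 and 165 CPM under Tg, and 105 and 114 CPM in AA_Dep. Those with shATF4 were at 155 and 157 CPM in DMSO, 176 and 169 CPM in Twist_OE, 146 and 134 CPM under Tg, and 98.4 CPM in AA_Dep. Twist_OE thus lay below DMSO with shCtrl (log2 change -0.82 ± 0.06, SE) and above it with shATF4 (0.12 ± 0.06). The shCtrl DMSO level of IGFBP2 was 39.2-fold lower in LX-2 than in HMLE.

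IGFBP6, which prefers IGF2 over IGF1, was highest in AA_Dep in HMLE and lowest under TGFβ in LX-2. In HMLE shCtrl it was at 72.6 and 73.6 CPM in DMSO, 94.5 and 94.4 CPM in Twist_OE, 88.6 and 101 CPM under Tg, and 133 and 132 CPM in AA_Dep. With shATF4 it was at 63.4 and 64.2 CPM in DMSO, 76.5 and 79.6 CPM in Twist_OE, 96.4 and 91.4 CPM under Tg, and 185 CPM in AA_Dep. AA_Dep libraries were the highest with either hairpin. In LX-2, IGFBP6 was at 61.1 and 70.4 CPM in shCtrl DMSO and at 24.2 and 26.6 CPM under TGFβ, a log2 change of -1.24 ± 0.24 over 15 libraries. The shCtrl Tg libraries were at 96.7 and 646 CPM, the second being the discordant library, with which the fitted log2 change was 3.21 ± 0.83 and without which it was 0.45 ± 0.27, and the shCtrl AA_Dep libraries at 102 and 53 CPM. With shATF4, IGFBP6 was at 76 and 67.4 CPM in DMSO, 19.8 and 22.4 CPM under TGFβ, 92.4 and 60.5 CPM under Tg, and 141 and 137 CPM in AA_Dep. TGFβ libraries were the lowest in LX-2 with either hairpin.

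PAPPA2, a protease that cuts IGFBP3 and IGFBP5, was lower with shATF4 than with shCtrl in every condition of HMLE. In HMLE shCtrl it was at 5.69 and 6.55 CPM in DMSO, 11.3 and 8.65 CPM in Twist_OE, 7.97 and 5.97 CPM under Tg, and 3.73 and 3.18 CPM in AA_Dep. The shATF4 libraries were at 0.226 and 0.319 CPM in DMSO, 3.08 and 2.8 CPM in Twist_OE, 0.341 and 0.263 CPM under Tg, and 0.251 CPM in AA_Dep. No shATF4 library reached the lowest shCtrl library. The log2 difference between hairpins was -4.45 ± 0.31 (SE) in DMSO, -1.79 ± 0.20 in Twist_OE, -4.53 ± 0.30 under Tg and -3.71 ± 0.51 in AA_Dep. Twist_OE went with a log2 change of 3.37 ± 0.35 in shATF4 and 0.72 ± 0.18 in shCtrl.

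In LX-2, PAPPA2 had 0 counts in all 4 DMSO libraries. With shCtrl it was at 0.0561 and 0.213 CPM under TGFβ, 3.49 and 0 CPM (the discordant library) under Tg, and 2.8 and 3.7 CPM in AA_Dep. Those with shATF4 were at 0 and 0.33 CPM under TGFβ, 0.977 and 1.58 CPM under Tg, and 0.454 and 0.387 CPM in AA_Dep. Both stress conditions thus had PAPPA2 counts in all libraries except the discordant one. With 3 counts over the group in place of 0, shCtrl PAPPA2 was 22.9-fold higher under Tg (60 counts, all in 1 library) than in DMSO. In AA_Dep (116 counts) it was 40.1-fold higher on the same terms. In shCtrl DMSO it was 75.7-fold lower in LX-2 than in HMLE. These ratios make no allowance for the spread of the higher group. The Tg ratio includes the depth of the discordant library, at 0 counts, which lowers it. In AA_Dep, PAPPA2 was 7.73-fold lower with shATF4, a log2 difference of -3.01 ± 0.57 (SE, 15 libraries). In Tg that difference was -1.43 ± 0.58 without the discordant library and -0.54 ± 1.17 with it.

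**Figure D3:**
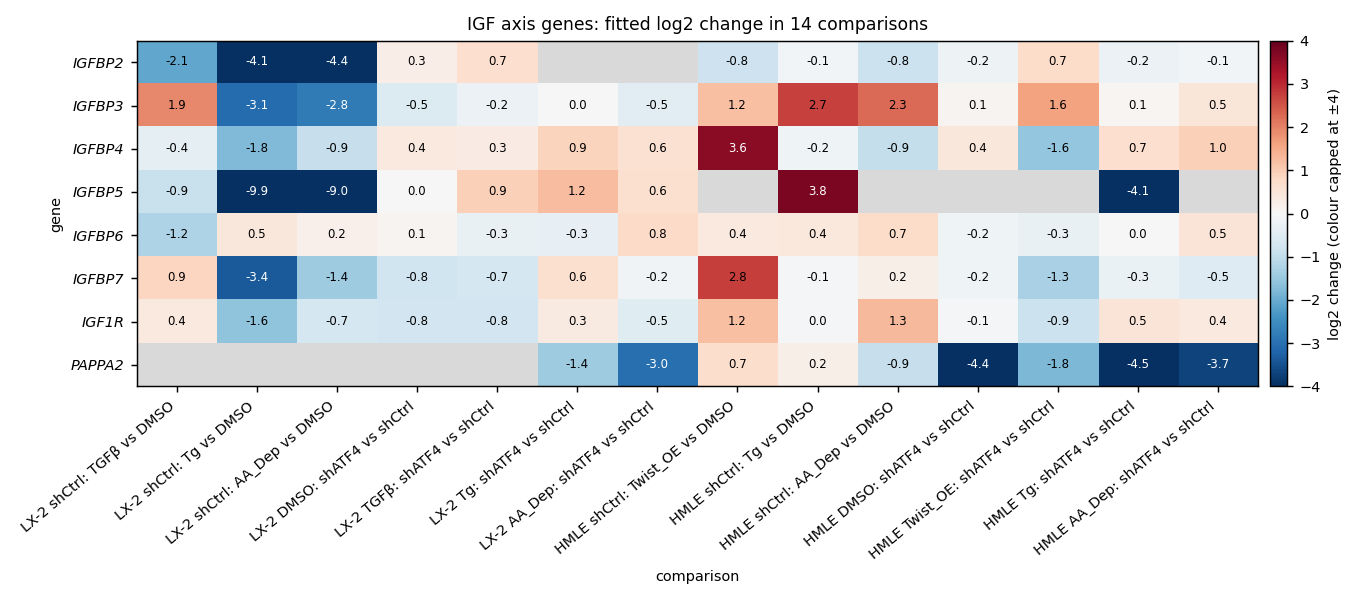
Fitted log2 change of 8 IGF axis genes in 14 comparisons, LX-2 without the discordant library, with colour capped at 4 in either direction. Grey cells had a group at 0 counts or under 1 CPM in both groups. IGFBP3 has opposite signs under Tg and AA_Dep in LX-2 (-3.1 and -2.8) and HMLE (2.7 and 2.3), and PAPPA2 is negative in every comparison of hairpins shown.

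The responses with either hairpin can be set side by side, since each hairpin has its own DMSO libraries. In LX-2 the changes of IGFBP5 under stress were -9.92 and -8.69 on the log2 scale under Tg and -9.00 and -8.38 in AA_Dep with shCtrl and shATF4 in turn, with differences of 1.23 ± 0.24 and 0.62 ± 0.17 (SE, 15 libraries). Of the HMLE genes, IGFBP4, IGFBP7 and IGF1R responded less to Twist_OE with shATF4, and IGFBP3, PAPPA2 and IGFBP2 had the higher response with shATF4. That difference was 0.94 ± 0.08 for IGFBP2 and 2.66 ± 0.42 for PAPPA2.

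**Figure D4:**
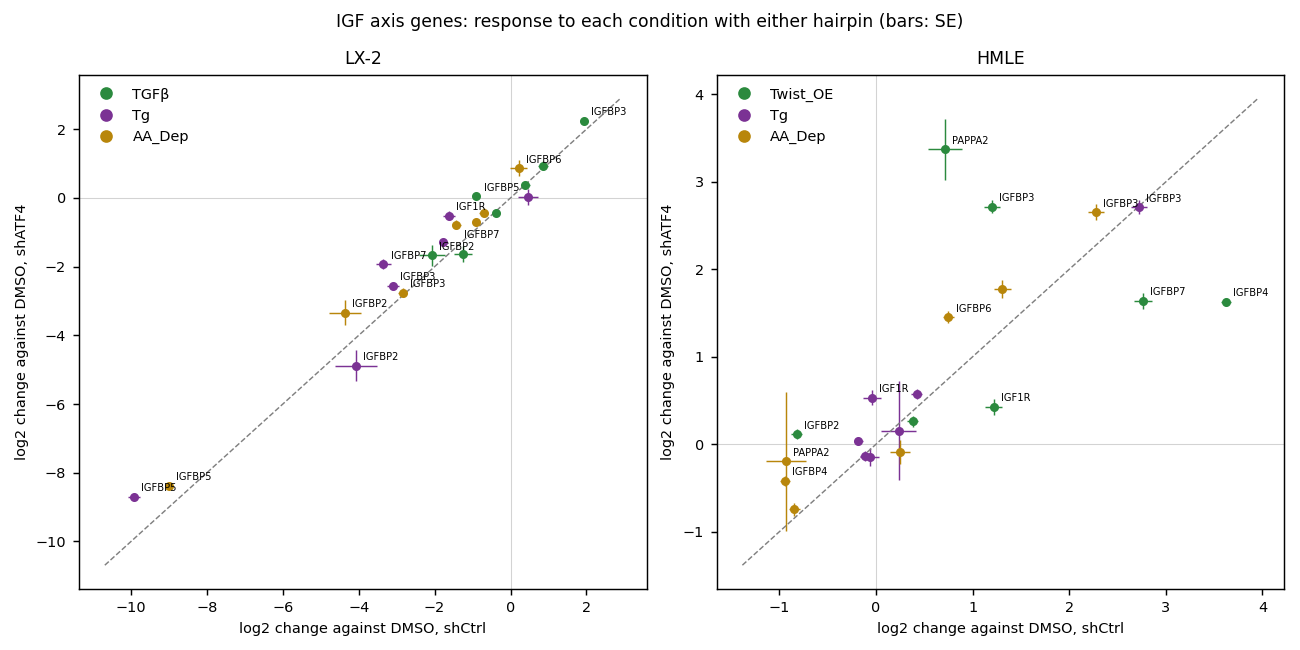
Fitted log2 change against DMSO with shATF4 (vertical axis) against that with shCtrl (horizontal axis) for each gene and condition, bars being SE and the dashed line equality. LX-2 leaves out the discordant library and PAPPA2, HMLE leaves out IGFBP5, and genes are named where the responses differ by over 0.5 or the shCtrl response exceeds 1.8. In LX-2 IGFBP5 lies lowest under Tg and AA_Dep, and in HMLE the Twist_OE points of IGFBP4 and IGFBP7 lie below the line while those of IGFBP3 and PAPPA2 lie above it.

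By position, the binding protein genes lie partly in pairs. IGFBP2 and IGFBP5 are neighbours on chromosome 2 with 7.7 kb between them, and IGFBP1 and IGFBP3 are neighbours on chromosome 7 with 18.6 kb between them (RefSeq, GRCh38.p14). In shCtrl DMSO, IGFBP5 was the higher in LX-2 and its neighbour IGFBP2 the higher in HMLE, and IGFBP1 stayed at or below 0.162 CPM in every library while IGFBP3 lay between 2.16 and 301 CPM.

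RefSeq promoter windows of GRCh38.p14 were found for 7 of the 10 genes, IGFBP2 with 3 starts. IGFBP1, IGFBP7 and IGF2 had no entry. Shown here are the 250 bases before the start of 4 genes that the results above turn on, in lower case, with matches to CANNTG (the E-box core, which factors of the Twist family bind) and TATAAA in capitals. IGFBP5 (chr2:216695550-216695799, minus strand) and IGFBP3 (chr7:45921273-45921522, minus strand) were low under both stresses in LX-2, IGFBP4 (chr17:40443200-40443449, plus strand) was highest in Twist_OE in HMLE, and PAPPA2 (chr1:176462925-176463174, plus strand) was low with shATF4.
IGFBP5: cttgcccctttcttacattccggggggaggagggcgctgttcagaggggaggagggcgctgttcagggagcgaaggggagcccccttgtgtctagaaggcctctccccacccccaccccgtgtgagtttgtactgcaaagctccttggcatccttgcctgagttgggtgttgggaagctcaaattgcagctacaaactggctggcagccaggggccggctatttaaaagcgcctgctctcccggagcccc
IGFBP3: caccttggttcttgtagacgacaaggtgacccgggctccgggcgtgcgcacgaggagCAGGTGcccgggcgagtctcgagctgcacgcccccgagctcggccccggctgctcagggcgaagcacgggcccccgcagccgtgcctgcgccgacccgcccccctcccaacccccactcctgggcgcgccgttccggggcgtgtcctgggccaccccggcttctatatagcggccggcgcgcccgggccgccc
IGFBP4: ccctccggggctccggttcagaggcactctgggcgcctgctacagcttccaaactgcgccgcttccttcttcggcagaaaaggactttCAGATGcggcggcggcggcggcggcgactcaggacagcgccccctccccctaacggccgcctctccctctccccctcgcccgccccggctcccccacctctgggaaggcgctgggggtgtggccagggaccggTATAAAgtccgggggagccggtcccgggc
PAPPA2: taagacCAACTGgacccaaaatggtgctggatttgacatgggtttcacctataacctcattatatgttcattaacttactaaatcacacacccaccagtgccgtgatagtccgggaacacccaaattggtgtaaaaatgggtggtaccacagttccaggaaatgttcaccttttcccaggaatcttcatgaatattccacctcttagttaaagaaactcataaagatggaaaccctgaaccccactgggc

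Counted from the start, CAACTG begins at -244 in PAPPA2, CAGGTG at -193 in IGFBP3, and CAGATG at -162 and TATAAA at -29 in IGFBP4, while the IGFBP5 window holds neither motif. On both strands, CANNTG occurs in 61.8% of the 35116 promoter windows of the same length, TATAAA in 10.7%, the SMAD core CAGAC in 38% and the cyclic AMP element TGACGTCA in 1.65%. The composite C/EBP and ATF element TGATGNAAT, a sequence that ATF4 is known to bind, occurs in 0.888% of them. No window of the 7 genes with an entry holds TGATGNAAT or TGACGTCA, and CAGAC was matched in windows of IGFBP2 alone. A match is a string of letters, not a binding site, and no match says only that these letters are absent from this window.

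The genes whose level followed a given gene most closely over the 8 groups of a line are given as a description with no test, since groups share hairpin, condition and library preparation. Likeness was Pearson r of the log2 of mean CPM plus 1, among 11475 candidate genes in LX-2 and 11206 in HMLE. The LX-2 means include the discordant library, and likeness without it was not computed. In LX-2, IGFBP5 was followed most closely by EMC8 (r = 0.997), ZNF354C (0.9948) and SMARCA1 (0.9944), and IGFBP3 by TNC (0.9966), CDH11 (0.9959) and PLA2R1 (0.9923). EMC8 ran only from 19.4 to 39.4 CPM over these groups, whereas CDH11, a cadherin of mesenchymal cells, ran from 3.22 to 217 CPM. In HMLE, IGFBP4 was followed by ITM2C (0.9912), S100A4 (0.9906) and INSYN2B (0.988), and PAPPA2 by MLLT11 (0.9735), LYSMD4 (0.9689) and TOR2A (0.9633). S100A4, a calcium-binding protein of motile cells, ran from 3.03 to 86.8 CPM.

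Of the 10 genes, 8 passed the count filter in each line, IGFBP1 and IGF2 not doing so. The rest of the pathway was a list of 39 genes (other ligands and receptors, partners, proteases and their inhibitors, adaptors, PI3K, AKT and FOXO genes, IGF2 mRNA-binding proteins and transcripts of the IGF2 locus). Of these, 28 passed the filter in LX-2 with 16 libraries, 29 with 15, and 32 in HMLE. They were tested with edgeR's quasi-likelihood F test, adjusted by Benjamini and Hochberg over all genes tested, with 0.05 as the threshold.

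Under TGFβ in LX-2 shCtrl, 2 genes rose and none fell with all 16 libraries, beside 1.52% of all genes tested that rose and 1.63% that fell. The stanniocalcin gene STC1 rose from 20.0 and 20.5 CPM to 48.2 and 45.5 CPM (log2 change 1.33 ± 0.26, SE, edgeR adjusted p = 0.02), and FOXO1, a transcription factor that AKT keeps out of the nucleus, rose by 1.43 ± 0.28 (edgeR adjusted p = 0.019). Both calls ended when any 1 of the 4 libraries compared was left out, with edgeR adjusted p between 0.098 and 0.23. Without the discordant library 4 rose and 6 fell, beside 11.1% and 11% of all genes. Among these were ADAM12, a protease of IGFBP3 and IGFBP5, which rose by 1.81 ± 0.12 (edgeR adjusted p = 2.4e-08), and IRS1, which fell by 0.88 ± 0.10 on the log2 scale (edgeR adjusted p = 4.6e-06).

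Under Tg in LX-2 shCtrl, 3 genes rose and 12 fell with all 16 libraries, beside 19.3% and 15.1% of all genes. STC2, an inhibitor of PAPPA, rose from 137 and 130 CPM to 630 and 242 CPM (1.91 ± 0.19, SE, edgeR adjusted p = 9.9e-05), the lower value being the discordant library. The other stanniocalcin gene, STC1, was instead among the 12 genes called lower. Of the proteases, HTRA1 fell from 51.8 and 59.2 CPM to 13.0 and 10.8 CPM (-1.86 ± 0.25, edgeR adjusted p = 0.0005) and PAPPA fell from 38.6 and 25.7 CPM to 14.1 and 2.82 CPM (-1.82 ± 0.37, edgeR adjusted p = 0.005). ADAM12 did not pass the test (-1.02 ± 0.56, edgeR adjusted p = 0.17). PAPPA missed the threshold without shCtrl DMSO replicate 1 (edgeR adjusted p = 0.054). TMEM219, which encodes a receptor for IGFBP3, was called higher (2.91 ± 0.78, edgeR adjusted p = 0.017) through the discordant library alone, at 503 CPM against 73.6 CPM in its replicate. Without that library its change was 0.12 ± 0.12 (edgeR adjusted p = 0.47). Over 15 libraries 7 genes rose and 13 fell, beside 20.2% and 20.4% of all genes. There STC2, HTRA1 and PAPPA had log2 changes of 2.14 ± 0.12, -2.20 ± 0.19 and -1.29 ± 0.21, with edgeR adjusted p of 2.1e-09, 2.4e-07 and 0.00017.

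In AA_Dep in LX-2 shCtrl, 4 genes rose and 4 fell with all 16 libraries, beside 6.09% and 6.95% of all genes. Both stanniocalcins rose, STC1 from 20.0 and 20.5 CPM to 105 and 118 CPM (2.43 ± 0.27, SE, edgeR adjusted p = 0.00024) and STC2 from 137 and 130 CPM to 678 and 544 CPM (2.16 ± 0.20, edgeR adjusted p = 7.5e-05). HTRA1 fell to 8.73 and 11.6 CPM (-2.49 ± 0.25, edgeR adjusted p = 0.00013) and PAPPA to 5.66 and 7.57 CPM (-2.31 ± 0.37, edgeR adjusted p = 0.002). IRS2 rose by 1.20 ± 0.22 (edgeR adjusted p = 0.0047), and missed the threshold without shCtrl AA_Dep replicate 2 or shCtrl DMSO replicate 2 (edgeR adjusted p = 0.052 and 0.075). Over 15 libraries 11 rose and 7 fell, beside 22.8% and 22.7% of all genes.

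Between hairpins in LX-2, the calls depended on the discordant library even where it was not compared. In DMSO, edgeR called 0 pathway genes over 16 libraries, beside 0.118% of all genes higher and 0.124% lower (1158 of all genes had an unadjusted p under 0.05, and DESeq2 called 1 pathway gene). Over 15 libraries 7 were higher and 1 lower with shATF4, beside 6.28% and 5.3% of all genes, among them STC1 (0.75 ± 0.11, SE, edgeR adjusted p = 0.00034) and HTRA1 (-0.93 ± 0.14, edgeR adjusted p = 0.00039). Under TGFβ, HTRA1 was lower with shATF4 (-1.44 ± 0.24, edgeR adjusted p = 0.014), the 1 gene called over 16 libraries, beside 0.647% of all genes higher and 0.641% lower. That call ended without any 1 of the 4 compared libraries, with edgeR adjusted p between 0.12 and 0.21, and over 15 libraries its edgeR adjusted p was 2.3e-06, 5 genes being higher and 4 lower beside 10.9% and 10.7% of all genes.

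In Tg, LX-2 STC2 was lower with shATF4, at 224 and 197 CPM (-1.35 ± 0.19, SE, edgeR adjusted p = 0.022), and STC1 was higher, at 31.9 and 38.8 CPM against 13.2 and 3.34 CPM (1.85 ± 0.27, edgeR adjusted p = 0.023), beside 0.135% of all genes higher and 0.0957% lower. Over 15 libraries, these values were -1.56 ± 0.12 and 1.44 ± 0.15, with edgeR adjusted p of 2.1e-06 and 3e-05, and IRS1 was called higher as well, beside 3.11% of all genes higher and 2.09% lower. The median log2 difference over all genes was 0.15 with the discordant library and 0.011 without it. Both calls over 16 libraries ended without either shATF4 Tg library (edgeR adjusted p between 0.22 and 0.32). In AA_Dep, edgeR called 0 pathway genes over 16 libraries, beside 0.0338% of all genes higher and 0.0563% lower (932 of all genes had an unadjusted p under 0.05, and DESeq2 called 2 pathway genes). Over 15 libraries 1 was higher and 8 lower, beside 3.87% and 6.04% of all genes, STC2 being lower by -1.12 ± 0.11 (edgeR adjusted p = 6.4e-06). STC1 was among these 8 too, whereas in LX-2 DMSO, TGFβ and Tg it was called higher with shATF4.

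With Twist_OE in HMLE shCtrl, 19 pathway genes rose and 8 fell, beside 28.3% and 28.9% of all genes. The proteases ADAM12 and HTRA1 rose, ADAM12 from 2.74 and 2.15 CPM to 69.8 and 68.7 CPM (4.83 ± 0.13, SE, edgeR adjusted p = 2.5e-16) and HTRA1 from 13.1 and 11.2 CPM to 66.7 and 69.6 CPM (2.49 ± 0.09, edgeR adjusted p = 1.5e-14). GRB10, an adaptor that dampens signalling of IGF1R and the insulin receptor, rose from 2.34 and 1.17 CPM to 38.7 and 39.7 CPM (4.47 ± 0.18, edgeR adjusted p = 8.9e-14). STC1 rose by 3.24 ± 0.11 (edgeR adjusted p = 3.5e-15) and STC2 by 1.61 ± 0.05 (edgeR adjusted p = 3.2e-15), while GRB14, a related adaptor, fell by 1.66 ± 0.25 on the log2 scale (edgeR adjusted p = 1.3e-05). The median log2 change of the tested pathway genes was 0.39, against 0.0021 over all genes.

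Under Tg in HMLE shCtrl, 9 pathway genes rose and 6 fell, beside 18.6% and 18.2% of all genes. STC2 rose from 63.6 and 63.2 CPM to 378 and 377 CPM (2.62 ± 0.05, SE, edgeR adjusted p = 4.5e-17). The receptor adaptors went in opposite directions: IRS1 fell from 52.2 and 53.1 CPM to 13.4 and 14.4 CPM (-1.88 ± 0.09, edgeR adjusted p = 7.6e-12), and IRS2 rose from 25.0 and 26.9 CPM to 72.5 and 63.4 CPM (1.43 ± 0.09, edgeR adjusted p = 2.1e-10). In AA_Dep, 14 rose and 8 fell, beside 29.1% and 32.6% of all genes. There STC2 reached 373 and 384 CPM (2.46 ± 0.05, edgeR adjusted p = 5.1e-17), GRB10 rose by 3.16 ± 0.20 (edgeR adjusted p = 8.8e-11), and IGF2R, which takes up IGF2 for degradation, rose by 1.02 ± 0.13 (edgeR adjusted p = 2.2e-06).

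Between hairpins in HMLE, STC2 was lower with shATF4 in all 4 conditions. It was at 21.9 and 22.0 CPM in DMSO, 66.4 and 73.2 CPM in Twist_OE, 42.6 and 41.4 CPM under Tg and 32.2 CPM in AA_Dep, against 63.6 and 63.2, 197 and 188, 378 and 377, and 373 and 384 CPM with shCtrl. The log2 differences were -1.52 ± 0.06, -1.49 ± 0.05, -3.18 ± 0.06 and -3.51 ± 0.08 (SE), with edgeR adjusted p of 5.6e-12, 1.9e-14, 1.4e-17 and 5.6e-16, the AA_Dep value resting on 1 shATF4 library and the spread of the other groups. STC1 was higher with shATF4 in DMSO (1.28 ± 0.12, edgeR adjusted p = 6.2e-07) and Tg (1.40 ± 0.12, edgeR adjusted p = 3.3e-08). In Twist_OE the proteases ADAM12 and HTRA1 were lower, by -2.56 ± 0.11 and -1.11 ± 0.08 on the log2 scale (edgeR adjusted p = 2.5e-13 and 1.1e-09), and ADAM28, which cuts IGFBP3, was higher (1.92 ± 0.21, edgeR adjusted p = 4e-07).

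By count, 4 pathway genes were higher and 2 lower with shATF4 in HMLE DMSO, beside 6.08% and 6.72% of all genes. In Twist_OE 6 were higher and 12 lower, beside 23.3% and 23.9%, and in AA_Dep, with 1 shATF4 library and the spread of the other groups, 8 were higher and 3 lower, beside 9.77% and 7.09%. In Tg 8 were higher and 6 lower, beside 12.3% and 11.9%. In DMSO the small differences of FOXO3, GRB2 and PIK3R1 passed the threshold with all libraries and missed it without shATF4 replicate 2 or shCtrl replicate 1, and those of FOXO3 and GRB2 also without shCtrl replicate 2. In AA_Dep those of FOXO1 and HTRA1 missed it without shCtrl replicate 1 (edgeR adjusted p = 0.19 and 0.23).

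**Figure D5:**
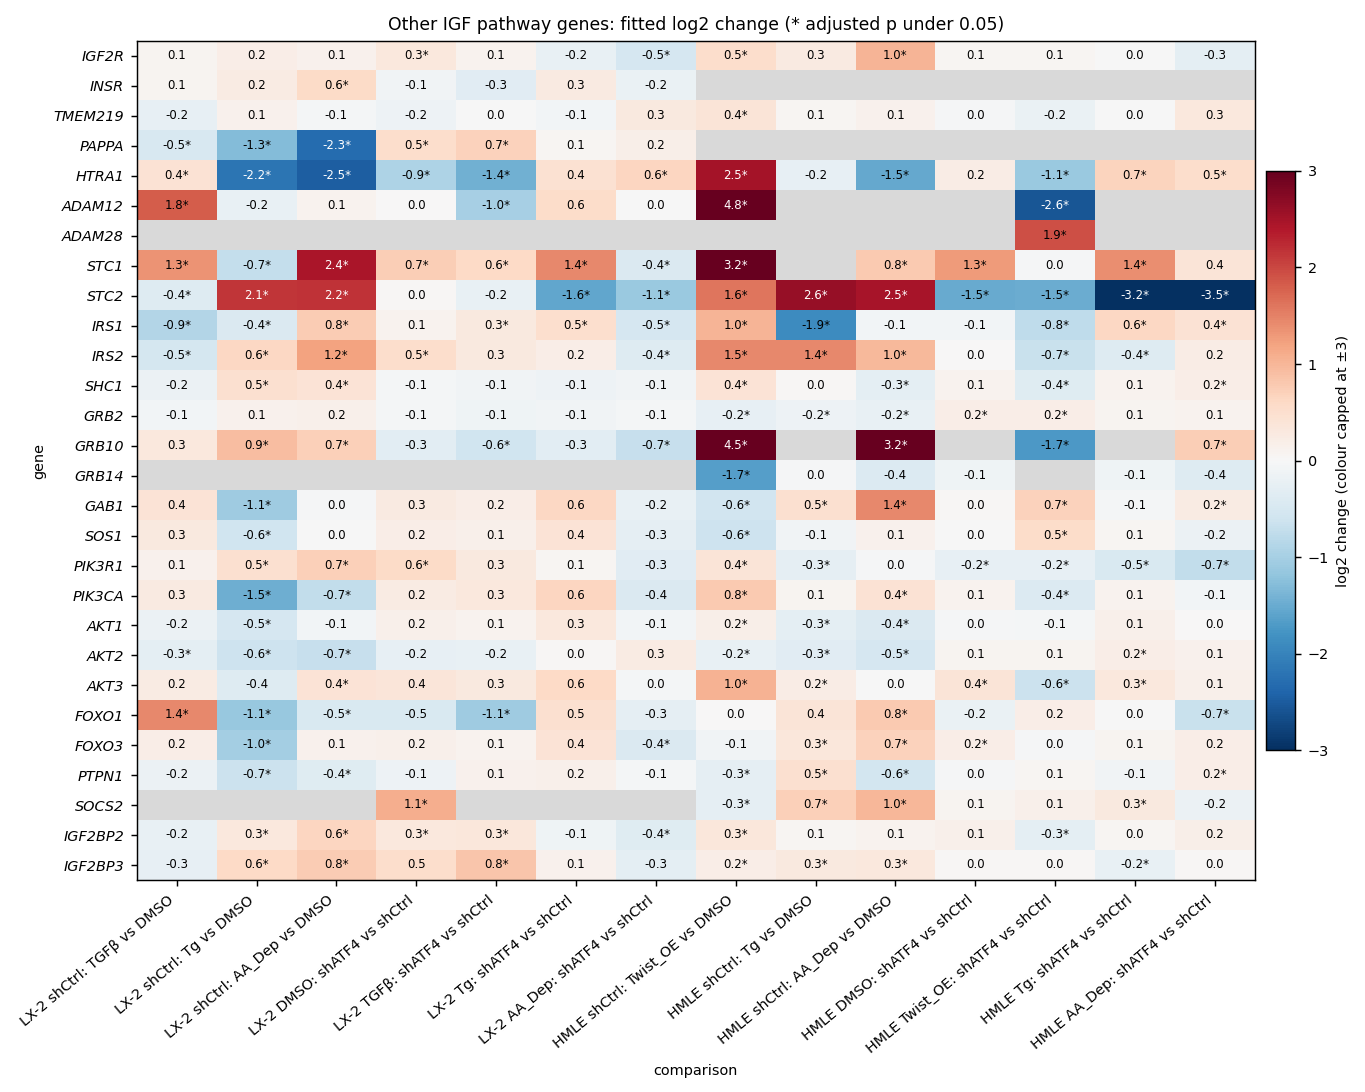
Fitted log2 change of pathway genes other than the 10 in the same 14 comparisons, LX-2 without the discordant library, with colour capped at 3 in either direction and an asterisk where the edgeR adjusted p was under 0.05. Grey cells had under 5 CPM in the higher group. STC2 is positive under Tg and AA_Dep in both lines and negative with shATF4 under those stresses in both lines.

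Between the lines in shCtrl DMSO, 11 pathway genes were higher and 7 lower in LX-2 than in HMLE, beside 26.8% and 24.8% of all genes. INSR, the insulin receptor gene, was at 17.7 and 16.4 CPM in LX-2 and at 0.0441 and 0 CPM in HMLE (log2 difference 8.99 ± 0.52, SE, edgeR adjusted p = 2.9e-10). PAPPA was at 38.6 and 25.7 CPM in LX-2 and 1.54 and 1.61 CPM in HMLE (4.15 ± 0.39, edgeR adjusted p = 2.9e-08), the reverse of PAPPA2 in the same libraries. ADAM12 was higher in LX-2 (2.93 ± 0.49, edgeR adjusted p = 5e-05), and SOCS2, a feedback inhibitor of cytokine receptors, was lower (-2.75 ± 0.44, edgeR adjusted p = 2.9e-05). Over libraries without the discordant one 16 were higher and 9 lower, beside 35.9% and 34.5% of all genes. The lines differ in tissue of origin and culture, which cannot be told apart here.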

How the data were processed

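RNA counts of 32 samples were used. The 9 chromatin immunoprecipitation samples were not analysed here. The deposited values are whole-number counts per Ensembl gene, 1 file a sample, and 58207 of 58735 genes matched a symbol. The builds hg19 and hg38 and the tools STAR, Bowtie2, featureCounts, HOMER, cutadapt and DESeq are listed per the submitters' processing notes. Versions and which served the RNA data are not given in the sources used here.

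CPM are counts per 1000000 gene counts of a library. All groups of a line entered 1 fit in edgeR 4.0.16 (limma 3.58.1, R 4.3.3): filterByExpr, TMM, quasi-likelihood F test, and adjustment by Benjamini and Hochberg over all genes tested with 0.05 as threshold. SE was taken as the size of the log2 change divided by the root of F. On simulated counts with 100 genes changed by a log2 of 1, edgeR recovered 1% in LX-2 with 16 libraries, 96% with 15 and 100% in HMLE. For a log2 of 2 it recovered 70%, 100% and 100%.

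The 10 genes, the 39 pathway genes and the cell type markers were chosen with earlier results of these data known. Pathway genes could be named if they were IGF1, IGF2R, INSR, PAPPA, STC1, STC2, IRS1 or IRS2, or among the up to 6 genes a comparison past the threshold with the largest log2 change and 5 CPM or more in the higher group. INS, INS-IGF2 and IGF2-AS, outside this rule, were named for their role after their values were seen. Likeness is Pearson's r of log2(mean CPM + 1) over 8 groups, 3 genes for each of 4. Alternatives were the Wald test of DESeq2 1.42.0, its size factors within edgeR, fits without a count filter or of the compared groups alone, a replicate block, and each library left out. Promoters are RefSeq's, GRCh38.p14.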

Additional observations from a re-analysis of the deposited data

Results flagged for a closer look

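For the genes below, the compared groups did not overlap in either line and differed in opposite directions in LX-2 and HMLE under the same contrast. How many of all genes show this was not counted, so the list is a description only. Groups of 1 or 2 libraries can separate by small differences, as for IGFBP2 in DMSO. The difference between the lines was not tested, and values are log2 ratios of mean CPM with LX-2 first and all libraries included. IGFBP5 had the widest pair, -10.83 and 3.84 for Tg against DMSO with shCtrl, on HMLE levels under 2 CPM. Its hairpins also differed in opposite ways, shATF4 against shCtrl being 2.21 and -4.09 in Tg, and 0.70 in LX-2 AA_Dep, where HMLE had a mean of 0.239 CPM with shCtrl and 0 counts with shATF4. That 0, in 1 library, allows up to 3 counts or 0.188 CPM, above the lower shCtrl library at 0.124 CPM. These HMLE groups are therefore not separated beyond that floor. PAPPA2 showed the pattern for AA_Dep against DMSO with shCtrl, at a mean of 3.25 CPM against 0 counts in LX-2 and a log2 ratio of -0.82 in HMLE.

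For IGFBP3 the pairs were -3.72 and 2.68 for Tg against DMSO with shCtrl, -2.48 and 2.69 with shATF4, -2.82 and 2.39 for AA_Dep against DMSO with shCtrl, and -2.67 and 2.73 with shATF4. In AA_Dep the hairpins also differed in opposite ways for IGFBP3, shATF4 against shCtrl being -0.38 and 0.43.

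IGF1R showed the pattern for AA_Dep against DMSO with shCtrl, at -0.69 and 1.42, and with shATF4, at -0.34 and 1.86. It showed it for Tg against DMSO with shATF4, at -0.45 and 0.51, and for shATF4 against shCtrl in AA_Dep, at -0.40 and 0.36. IGFBP7 showed it for AA_Dep against DMSO with shCtrl, at -1.41 and 0.36, and IGFBP2 for shATF4 against shCtrl in DMSO, at 0.29 and -0.23, and in AA_Dep, at 1.42 and -0.15. LX-2 shCtrl Tg includes the discordant library, without which IGFBP3 and IGFBP5 stay lower in Tg than in DMSO at fitted log2 changes of -3.09 and -9.92. HMLE shATF4 AA_Dep is 1 library.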

How the results depend on the processing

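No alternative run reversed a named pathway gene. Between LX-2 Tg hairpins, IGFBP4 (-0.90 to 0.89) and IGFBP3 (0.49 ± 0.33 to -0.01 ± 0.16) changed sign without shCtrl replicate 2, and PAPPA2, at -0.54 with all libraries, turned positive without shCtrl replicate 1, which leaves shCtrl with 0 counts. Counts of pathway genes past the threshold moved by over 1.5 times as follows. When a fit held the compared groups alone, LX-2 counts went from 2 to 10 under TGFβ, 15 to 0 under Tg and 8 to 14 in AA_Dep, and for shATF4 against shCtrl from 0 to 11 in DMSO, 1 to 19 under TGFβ, 2 to 0 in Tg and 0 to 1 in AA_Dep. With DESeq2 the LX-2 hairpin counts were 1, 3, 9 and 2 in that order, beside 321, 867, 4068 and 199 of all 34662 genes tested, and the HMLE AA_Dep hairpin count 5 in place of 11. Without the count filter LX-2 Tg hairpins gave 11 and HMLE AA_Dep hairpins 7.

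Leaving out 1 library gave 0 to 10 calls under TGFβ, 6 to 25 under Tg and 4 to 18 in AA_Dep in LX-2, and for its hairpins 0 to 8 in DMSO, 0 to 9 under TGFβ, 0 to 26 in Tg and 0 to 9 in AA_Dep. The highest of each came without the discordant library, except in both Tg results, where 25 and 26 came without its replicate. In HMLE the ranges were 23 to 24 in Twist_OE, 11 to 14 under Tg, 21 to 23 in AA_Dep, and for the hairpins 3 to 6 in DMSO (3 without shATF4 replicate 2 or shCtrl replicate 1), 16 to 18 in Twist_OE, 10 to 15 in Tg and 6 to 8 in AA_Dep (6 without shCtrl replicate 1). Between the lines they were 14 to 25.

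With the replicate number as block, the counts of calls went from 0 to 27, none moving by over 1.5 times. Of the named pathway genes, AKT2 in LX-2 AA_Dep (adjusted p = 0.054 by edgeR) and HTRA1 between HMLE AA_Dep hairpins (adjusted p = 0.061 by edgeR) missed the threshold. Replicates share only a number: deviations of same-numbered libraries correlated between -0.191 and 0.186. Depth limits IGF2, IGFBP1 and, in HMLE, IGFBP5, which rest on few counts, and PAPPA2 in LX-2.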
